A study of Mus musculus with 8 samples.

Results

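The 46 DNA replication genes described here encode the proteins that mark origins, unwind and copy DNA, supply deoxynucleotides and put histones back on the new strands. They were taken from a list of gene symbols, matched exactly to the symbols of the deposited count tables, and all 46 were found among the 26608 genes listed. Messenger RNA was counted in the neural tube of FVB mice on embryonic day 8.5, cut out by laser microdissection at closure site 1, where the neural folds first meet. Sections behind the site held closed neural tube and sections in front of it held open neural tube, in embryos of diabetic and of normal dams. There were 2 libraries of closed tube from diabetic dams (numbered 15 and 16), 2 of open tube from diabetic dams (13 and 14), 2 of closed tube from normal dams (11 and 12) and 2 of open tube from normal dams (09 and 10). The strain was the same throughout, and no agent or allele is named for any group. The labels do not say how the dams became diabetic or how many embryos, litters or dams a library holds. They also do not say whether closed and open libraries came from the same embryos. A p-value therefore speaks only of the spread from library to library, with the 8 libraries taken as independent.

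Before a cell divides, the origin recognition complex, with Cdc6 and Cdt1, loads rings of the Mcm2-7 helicase onto DNA. In S phase, the Cdc7-Dbf4 and cyclin E kinases and the GINS complex turn the rings into moving helicases. Replication protein A (RPA) coats the single strands, and polymerases alpha, delta and epsilon copy them, delta and epsilon on the sliding clamp PCNA. Neural tube cells of this age divide rapidly, and the transcripts of many of these genes are made under the control of E2F factors.

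The libraries were made by SAGE, in which each transcript is represented by 1 short tag that begins at its CATG site nearest the 3′ end. The letters of that tag were read from GENCODE M21 transcripts on GRCm38, at a tag length of 27 bases and with RefSeq-matched transcripts preferred, to show what each count rests on. The CATG is in capitals in the tags that follow, each 5′ to 3′ on the transcript strand, and the anchoring site and tag length are background knowledge of the kit, not statements of the labels. The 3 tags of the RPA subunits and that of Rfc3 are given because the values of Rpa2 and Rfc3 split the libraries, and the rest because the transcript's end cuts them short or nearly so.
Rpa1: CATGtagaaacccgtggggagtgaaag
Rpa2: CATGgccaccgcagattgtgactagac
Rpa3: CATGaatgagcttcttcagtttcttaa
Rfc3: CATGatgttctgacagccagcagctcc
Chaf1a: CATGaacg
Prim2: CATGtatatgacta
Pold2: CATGaatttttcacaggtctgaa
Chaf1b: CATGaattggttcacatagaaaaa
Mcm6: CATGaaaataaaacaacttgttctg
Cdt1: CATGtaagatttaaataaaatactact
Rrm2: CATGgcatacaagtattaaatgattta

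Counts are given as CPM, the count divided by the library total and scaled to 1000000, which is a level per transcript and needs no division by length because a transcript gives 1 tag. A full tag of 27 bases was found in 41 of the 46 genes. In the other 5 the last CATG lies too near the end of the annotated transcript, with 8 bases left in Chaf1a (the large subunit of chromatin assembly factor 1), 14 in Prim2 (the large primase subunit), 23 in Pold2 (a subunit of polymerase delta), 24 in Chaf1b and 25 in Mcm6. All 5 had a mean level under 10 CPM over the 8 libraries, between 0.428 and 5.50 CPM. Of the 41 genes with a full tag, 3 were under 10 CPM and the rest reached as high as 1835 CPM. Just past the full length, Cdt1, whose tag starts 33 bases from the end, averaged 555 CPM, Mcm3, at 35 bases, 67.1 CPM, and Rrm2, at 45 bases, 1835 CPM. Mcm6, which has 28 bases left in another of its transcripts, stood at 0 to 7.93 CPM while the other 5 subunits of the same hexamer stood at 48.8 CPM or more in every library. Pola1, Pole2 and Fen1 were the 3 low genes with a full tag, which starts 477, 763 and 1401 bases from the end, and the tag of Mcm5, at 909 bases, averaged 618 CPM. Tags of 39 genes begin in the 3′ UTR and those of 7 in coding sequence. None of the 41 full tags was the predicted tag of another gene, and for the 5 shorter tags no such statement is made. Whether the short tags account for the low counts was not tested.

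**Figure D1:**
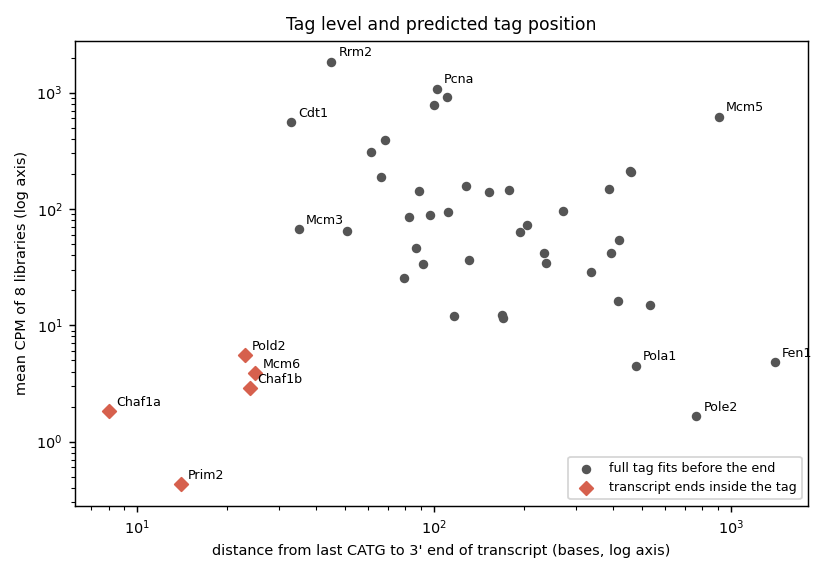
Mean level of each DNA replication gene over 8 libraries (CPM, log axis) against the distance from the start of its predicted tag to the 3′ end of the transcript (bases, log axis). The 5 genes with less than 27 bases left all lie under 10 CPM, and 38 of the 41 others lie above it.

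Library totals ran from 5041586 (library 15) to 16655583 counts (library 13), so 3 counts, the limit that a count of 0 allows, equal 0.180 to 0.595 CPM, counting error only. The replication genes together took 0.771% to 0.994% of all counts. Their summed level was 8979, 8805, 7706 and 8657 CPM in diabetic libraries 15, 16, 13 and 14, against 8769, 8699.9, 9941 and 9407 CPM in normal libraries 11, 12, 09 and 10. The sums averaged 8537 ± 569 CPM in diabetic libraries, against 9204 ± 585 CPM in normal libraries (SD, n = 4 each), and the groups overlap. They averaged 8813 ± 119 CPM in closed and 8928 ± 970 CPM in open tube (SD, n = 4 each), and these groups overlap too. All 8 neural progenitor markers checked had counts in every library except 09, which had 7. Library 13 stood apart in tissue markers, with 186 CPM over 8 neural progenitor genes where the other diabetic libraries had 878 to 1148 CPM and the normal libraries 893 to 1175 CPM, and with the highest mesoderm sum, 1334 CPM. Libraries 12 and 10, both from normal dams, carried Xist, the RNA of the inactive X chromosome, at 297 and 301 CPM, against at most 4.27 CPM elsewhere, and had under 1 CPM of the Y-linked gene Ddx3y. No diabetic library carried Xist at that level. In bulk tissue, fewer cells of a type and less RNA per cell cannot be told apart.

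Orc6, the smallest subunit of the complex and the highest of the 5 listed here, stood at 103, 164, 154 and 181 CPM in diabetic libraries 15, 16, 13 and 14, against 92.6, 159.6, 165 and 142 CPM in normal libraries 11, 12, 09 and 10. The diabetic and normal ranges overlap, and the log2 fold change between dams was 0.08 (SE 0.24). Orc2, Orc3, Orc4 and Orc5 spanned 86.5 to 179.8 CPM, 23.7 to 65.6 CPM, 26.3 to 70.7 CPM and 13 to 55.4 CPM. Orc5 varied most of the 5, with a highest-to-lowest ratio of 4.26, and Orc6 least, at 1.95. All 5 log2 fold changes between diabetic and normal dams were positive, from 0.01 to 0.29, where 52.7% of all genes were positive. The smallest unadjusted p by edgeR was 0.37. Within open tube 2 of the 5 were positive and 3 negative, and within closed tube all 5 were positive.

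Of the 2 licensing factors, Cdt1, which loads the helicase and is destroyed in S phase, stood at 381, 579, 477 and 625 CPM in diabetic libraries 15, 16, 13 and 14, against 517, 687, 501 and 675 CPM in normal libraries 11, 12, 09 and 10. Cdc6, the ATPase that works with it, spanned 41.3 to 85.7 CPM. The log2 fold changes between dams were -0.22 (SE 0.20) for Cdt1 and -0.01 (SE 0.32) for Cdc6, neither with an unadjusted p below 0.05 by edgeR.

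The 6 MCM genes encode the subunits of the helicase ring. Mcm2 varied little and stood at 746, 809, 602 and 708 CPM in diabetic libraries 15, 16, 13 and 14, against 879.9, 825, 876 and 782 CPM in normal libraries 11, 12, 09 and 10. Mcm5 stood at 776, 632, 340.2 and 506 CPM in diabetic libraries 15, 16, 13 and 14, against 571, 776, 734 and 609.6 CPM in normal libraries 11, 12, 09 and 10, with the lowest value in library 13. Mcm3 stood at 52.0, 48.8, 53.9 and 95.3 CPM in diabetic libraries 15, 16, 13 and 14, against 62.5, 58.2, 64.0 and 102 CPM in normal libraries 11, 12, 09 and 10, and open libraries 14 and 10 lay above the other 6. Mcm7 spanned 54.1 to 488 CPM and Mcm4 125 to 261 CPM. For dams, 5 of the 6 log2 fold changes were negative, where 52.7% of all genes were positive. The 6 values ran from -0.32 to 0.10, and the smallest unadjusted p by edgeR was 0.13. Within open tube 5 of the 6 were negative, and within closed tube 2 were negative and 4 positive.

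Among the firing factors, Ccne1, a cyclin E that activates Cdk2 at the start of S phase, was the highest and stood at 343, 369, 274 and 427 CPM in diabetic libraries 15, 16, 13 and 14, against 388, 382, 470.0 and 470.0 CPM in normal libraries 11, 12, 09 and 10. Gins1, a subunit of the GINS complex that joins the helicase, stood at 122, 128, 79.7 and 105 CPM in diabetic libraries 15, 16, 13 and 14, against 76.2, 98.8, 103 and 59.1 CPM in normal libraries 11, 12, 09 and 10. Its partner Gins3 stood at 28.6, 24.0, 6.72 and 9.91 CPM in diabetic libraries 15, 16, 13 and 14, against 25.3, 35.7, 21.7 and 51.3 CPM in normal libraries 11, 12, 09 and 10. Library 10 was highest for Gins3 and diabetic open libraries 13 and 14 were lowest. Dbf4, the activating subunit of the Cdc7 kinase, stood at 16.7, 4.46, 25.7 and 13.6 CPM in diabetic libraries 15, 16, 13 and 14, against 17.1, 27.7, 13.3 and 11.1 CPM in normal libraries 11, 12, 09 and 10. Gins2, Gins4, Cdc7 and Mcm10 spanned 105 to 172 CPM, 108 to 184 CPM, 58.9 to 127 CPM and 21.5 to 47.3 CPM, and Ccne2, the other cyclin E, spanned 2.37 to 29.2 CPM.

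Rpa2, the middle subunit of the single-strand binding complex RPA, had the smallest p between dams of the 45 replication genes tested. It stood at 123, 114, 113 and 141 CPM in diabetic libraries 15, 16, 13 and 14, against 32.6, 59.7, 40.5 and 55.9 CPM in normal libraries 11, 12, 09 and 10, which sets every diabetic library above every normal one. Rpa1, the large subunit, stood at 183, 194, 172 and 207 CPM in diabetic libraries 15, 16, 13 and 14, against 171, 267, 240.0 and 248 CPM in normal libraries 11, 12, 09 and 10. Rpa3, the small subunit, stood at 34.3, 29.3, 44.1 and 57.2 CPM in diabetic libraries 15, 16, 13 and 14, against 20.5, 26.1, 26.8 and 36.2 CPM in normal libraries 11, 12, 09 and 10. The ratio of Rpa2 to Rpa1, formed after their values were seen, was 0.675, 0.584, 0.653 and 0.682 in diabetic libraries 15, 16, 13 and 14, against 0.191, 0.224, 0.169 and 0.226 in normal libraries 11, 12, 09 and 10. The ratio of Rpa3 to Rpa1 was 0.151 to 0.276 in diabetic and 0.0978 to 0.146 in normal libraries. These ranges lie apart only by the narrow gap from 0.146 to 0.151, and the levels of Rpa3 itself overlap between dams. How many gene pairs have ratios that separate the dams was not counted. A ratio within a library describes how the counts of the subunits stood to each other, and not which of them differed.

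**Figure D2:**
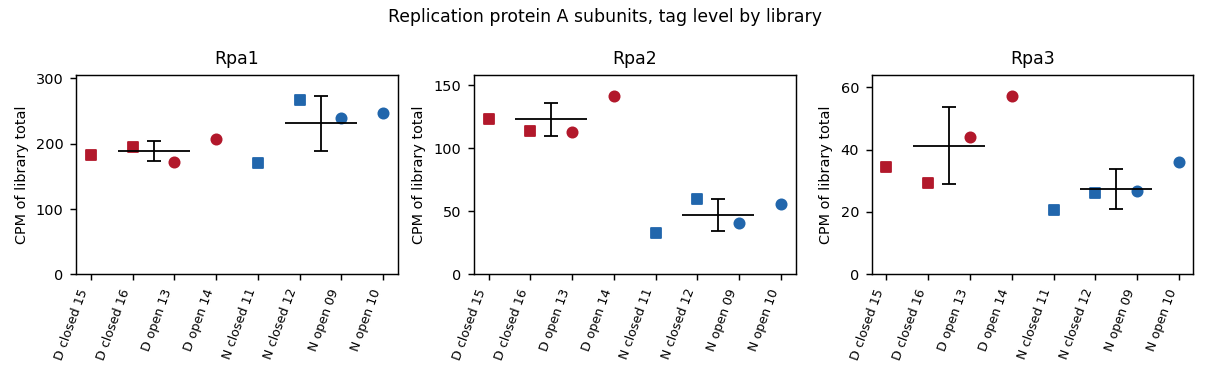
Levels of Rpa1, Rpa2 and Rpa3 (CPM) in each library, diabetic dams in red and normal dams in blue, closed tube as squares and open tube as circles, with a black bar for the mean ± SD of the 4 libraries of a dam. The 4 diabetic libraries hold 113 to 141 CPM of Rpa2 and the 4 normal libraries 32.6 to 59.7 CPM.

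The polymerase and primase genes were mostly of low or middle level. Pold1, the catalytic subunit of polymerase delta, stood at 167, 194, 129.5 and 126 CPM in diabetic libraries 15, 16, 13 and 14, against 58.9, 234, 68.7 and 272 CPM in normal libraries 11, 12, 09 and 10, and the normal libraries split into a high pair (12 and 10) and a low pair (11 and 09). Pola1, the catalytic subunit of polymerase alpha, lies on the X chromosome and was counted at 5.36, 6.70, 4.74 and 10.9 CPM in diabetic libraries 15, 16, 13 and 14, against 4.27, 0, 3.85 and 0 CPM in normal libraries 11, 12, 09 and 10, with no count in libraries 12 and 10. Pola2, its accessory subunit, stood at 17.1, 5.58, 13.7 and 11.5 CPM in diabetic libraries 15, 16, 13 and 14, against 2.85, 7.55, 5.53 and 32.6 CPM in normal libraries 11, 12, 09 and 10, and library 10 lay above all others. Prim1, the catalytic primase subunit, spanned 52.5 to 95.4 CPM, Pole, the catalytic subunit of polymerase epsilon, 57.5 to 119 CPM, and Pold3 18 to 55.0 CPM. Of the low genes, Pold2 spanned 2.67 to 8.41 CPM, Pole2, a subunit of polymerase epsilon, 0 to 5.03 CPM, and Prim2 0 to 3.22 CPM, which was too low to be tested.

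Pcna, the sliding clamp, was among the steadiest genes and stood at 904, 1203, 1107 and 1149 CPM in diabetic libraries 15, 16, 13 and 14, against 1054, 996, 1245 and 937 CPM in normal libraries 11, 12, 09 and 10. Rfc1, the large subunit of the clamp loader, stood at 172, 159, 148 and 172 CPM in diabetic libraries 15, 16, 13 and 14, against 199.6, 148, 254 and 253 CPM in normal libraries 11, 12, 09 and 10. Rfc3, a small subunit, stood at 6.15, 2.93, 1.14 and 2.39 CPM in diabetic libraries 15, 16, 13 and 14, against 1.25, 37.9, 3.65 and 42.2 CPM in normal libraries 11, 12, 09 and 10. It was at 37.9 and 42.2 CPM in libraries 12 and 10, the libraries that carried Xist, and at 6.15 CPM or less in the other 6. Rfc5, another small subunit, stood at 9.52, 16, 2.28 and 1.67 CPM in diabetic libraries 15, 16, 13 and 14, against 19.2, 20.4, 7.11 and 16.4 CPM in normal libraries 11, 12, 09 and 10, with diabetic open libraries 13 and 14 lowest. Rfc2 and Rfc4 spanned 28.2 to 83.9 CPM and 18.2 to 57.5 CPM.

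Lig1, the ligase that joins Okazaki fragments, stood at 888, 705, 854 and 890.0 CPM in diabetic libraries 15, 16, 13 and 14, against 992, 957, 1020.2 and 963 CPM in normal libraries 11, 12, 09 and 10. All 4 diabetic libraries lay below the 4 normal ones, by a small margin. Fen1, the flap nuclease of the same step, spanned 0 to 11.1 CPM. Rrm2, the regulated subunit of ribonucleotide reductase, was the most counted of all 46 genes and stood at 2095, 1657, 1623 and 1762 CPM in diabetic libraries 15, 16, 13 and 14, against 2268, 1088, 2263 and 1923 CPM in normal libraries 11, 12, 09 and 10. Its large partner Rrm1 stood at 56.9, 50.6, 24.6 and 43.4 CPM in closed libraries 15, 16, 11 and 12, against 28.6, 6.80, 16.5 and 2.47 CPM in open libraries 13, 14, 09 and 10. Chaf1a was counted at 1.79, 0.419, 7.66 and 1.92 CPM in closed libraries 15, 16, 11 and 12, against 2.88, 0, 0 and 0 CPM in open libraries 13, 14, 09 and 10, and Chaf1b, the middle subunit of the same factor, at 2.98, 2.09, 5.88 and 4.74 CPM in closed libraries 15, 16, 11 and 12, against 2.88, 2.27, 2.07 and 0 CPM in open libraries 13, 14, 09 and 10.

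**Figure D3:**
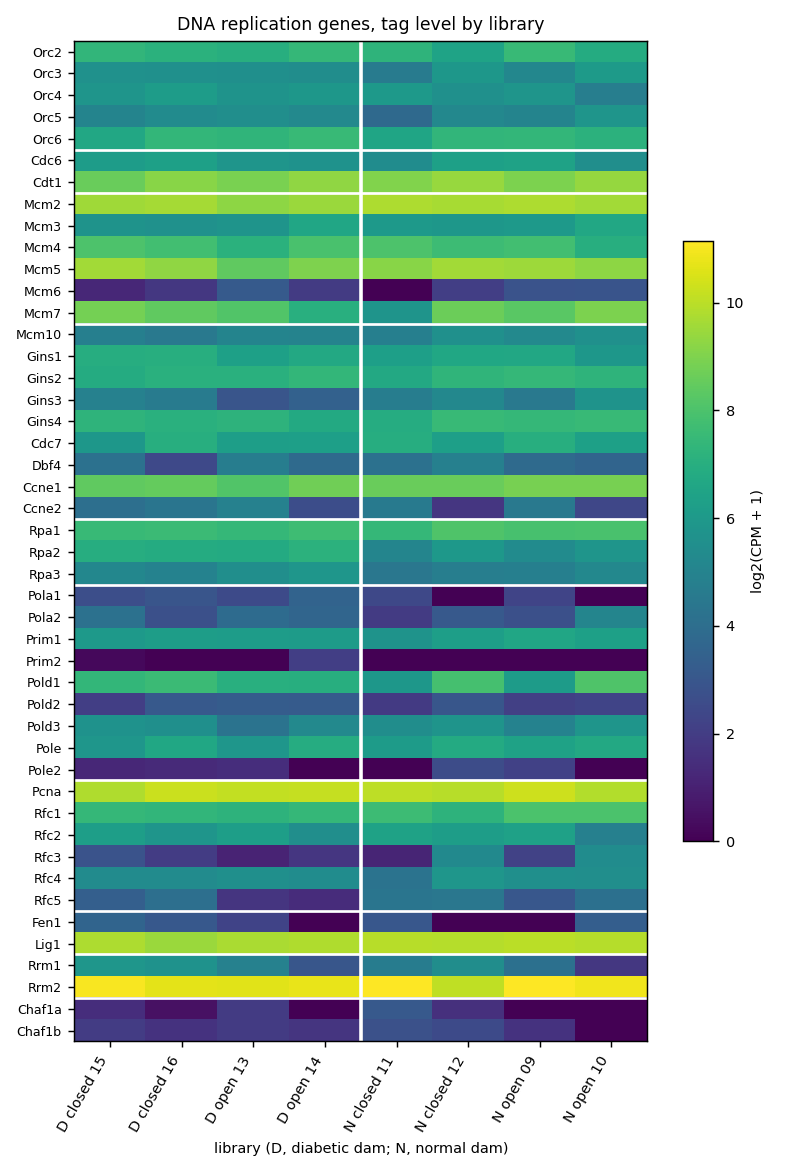
Levels of the 46 DNA replication genes, as log2(CPM + 1), in 8 libraries, with genes grouped by role and a white line between diabetic (left) and normal dams (right). Rrm2, Pcna and Lig1 are high in every library, and the rows of Rpa2, Rfc3 and Rrm1 change across libraries.

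How much a gene varied went with its level. The 16 genes over 100 CPM had a median SD of 0.30 on the log2(CPM + 1) scale, beside 0.31 for all 1816 genes at that level. The 22 genes between 10 and 100 CPM had a median SD of 0.50, beside 0.60 for 5127 genes, and the 8 under 10 CPM had 1.03, beside 0.90 for 8219 genes. Among the 39 genes counted in every library, Pcna, Lig1 and Mcm2 were the tightest, with a highest-to-lowest ratio of 1.38, 1.45 and 1.46. Rfc3, Rrm1 and Ccne2 of the 39 had the highest ratios, at 37.0, 23.0 and 12.3. No ratio can be given for the 7 genes with a library at 0, and by SD on the log2(CPM + 1) scale Fen1, at 1.63, stood between Rfc3, at 1.72, and Rrm1, at 1.42. Libraries of 1 group differed from each other as well: library 11 was the lowest for 14 of the 39 genes counted in every library, and library 10 the highest for 12 of all 46.

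**Figure D4:**
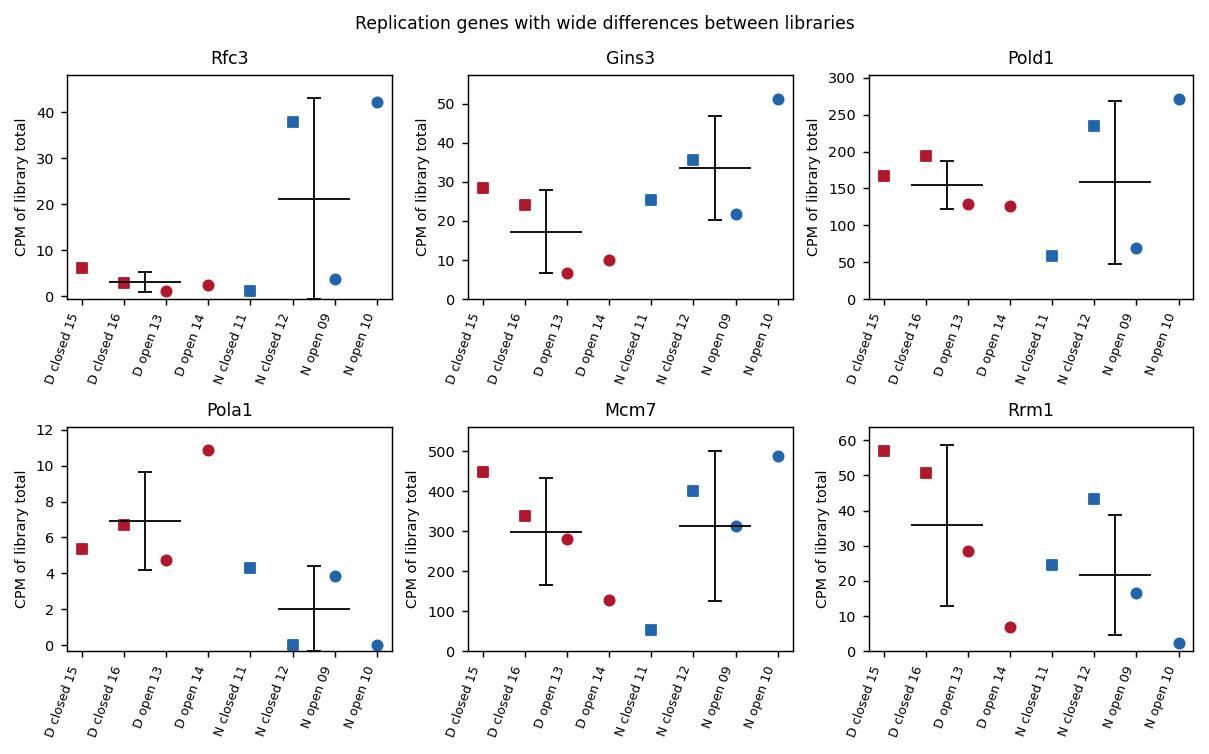
Levels (CPM) of Rfc3, Gins3, Pold1, Pola1, Mcm7 and Rrm1 in each library, diabetic dams in red and normal dams in blue, closed tube as squares and open tube as circles, with a black bar for the mean ± SD of the 4 libraries of a dam. In libraries 12 and 10 Rfc3 reaches 37.9 and 42.2 CPM and Pola1 has no count.

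The comparison of diabetic with normal dams asked whether maternal diabetes alters transcript levels at the closure site. It was fitted over 11779 genes with edgeR's quasi-likelihood F test, with region as a second term, and 45 of the 46 replication genes could be tested. None passed a Benjamini-Hochberg adjusted p of 0.05, beside 0% of all genes tested, and the smallest adjusted p of a replication gene was 0.938. At an unadjusted p below 0.05, 1 of the 45 was higher with diabetic dams, beside 2.97% of all genes, and 3 were lower, beside 1.58%. The median log2 fold change was -0.09 over the 45 genes and 0.04 over all genes, with 19 positive and 26 negative, where 52.7% of all genes were positive. The replication genes had a median SE of 0.32, against 0.67 over all genes, and 34 of the 45 had a log2 fold change within 0.5 of 0, beside 54.6% of all genes. These comparisons with all genes are not matched on level, and how much a gene varied went with its level.

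Rpa2 averaged 123 ± 13.3 CPM in diabetic libraries, against 47.2 ± 12.8 CPM in normal libraries (SD, n = 4 each), which gives a log2 difference of 1.37 (SE 0.26), or 2.58-fold. Its unadjusted p of 0.000286 by edgeR was the third smallest of the 11779 genes, and its adjusted p was 0.938. The call depended on the tool: the adjusted p was 0.00601 with DESeq2, which called 0.314% of all genes, and 0.00326 with edgeR without the filter on low counts, which called 0.587%, while limma-voom gave 0.46. Over all 14 alternatives the adjusted p ranged from 0.00326 to 1.00 and the log2 fold change from 1.22 to 1.72, the highest of them without both Xist-bearing libraries. The difference was 1.39 (SE 0.39) in open tube and 1.34 (SE 0.39) in closed tube. Library 13, with the low neural sum, held 113 CPM, close to library 16, and without it the log2 fold change was 1.42. The sum over 7 mesoderm markers was 287 to 1334 CPM in diabetic and 117 to 342 CPM in normal libraries, that over 6 endothelial markers 53.6 to 292 CPM in diabetic and 26.4 to 59.6 CPM in normal libraries, and that over 5 blood markers, of which Hbb-y was at 0 throughout, 4.36 to 1009 CPM in diabetic and 0.296 to 63.3 CPM in normal libraries. The sum over 5 heart and endoderm markers, of which Nkx2-5 and Tbx5 were at 0 throughout, separated the dams as Rpa2 did, at 32.5, 27.5, 111 and 24.4 CPM in diabetic libraries 15, 16, 13 and 14, against 12.1, 19.5, 15.2 and 14.8 CPM in normal libraries 11, 12, 09 and 10. The sum over 5 surface ectoderm markers was 47.0 to 320.2 CPM in diabetic and 48.4 to 236 CPM in normal libraries. Their part in the difference was not tested.

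The 3 genes lower with diabetic dams at an unadjusted p below 0.05 were Rfc3, Gins3 and Rfc5. Rfc3 had a log2 fold change of -2.90 (SE 1.11), but without the Xist-bearing libraries 12 and 10 it was 0.10, with an adjusted p of 0.997 by edgeR. Gins3 had -1.18 (SE 0.53), and between -1.51 and -0.74 as each library was left out. Rfc5 had -1.59 (SE 0.71), and between -1.92 and -1.16. Besides Rpa2, the groups of dams did not overlap for Pola1, higher with diabetic dams at 1.71 (SE 1.60), and for Lig1, lower at -0.25 (SE 0.15). That makes 2 of 45 genes wholly above, beside 2.48% of all genes, and 1 wholly below, beside 1.15%. Pola1 rests on at most 10.9 CPM and had no count in the Xist-bearing normal libraries 12 and 10. In normal libraries 11 and 09 it stood at 4.27 and 3.85 CPM, close to the lowest diabetic value, 4.74 CPM in library 13. Over all alternatives its log2 fold change ranged from 0.72 to 3.34. The fold of Lig1 was 0.839.

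**Figure D5:**
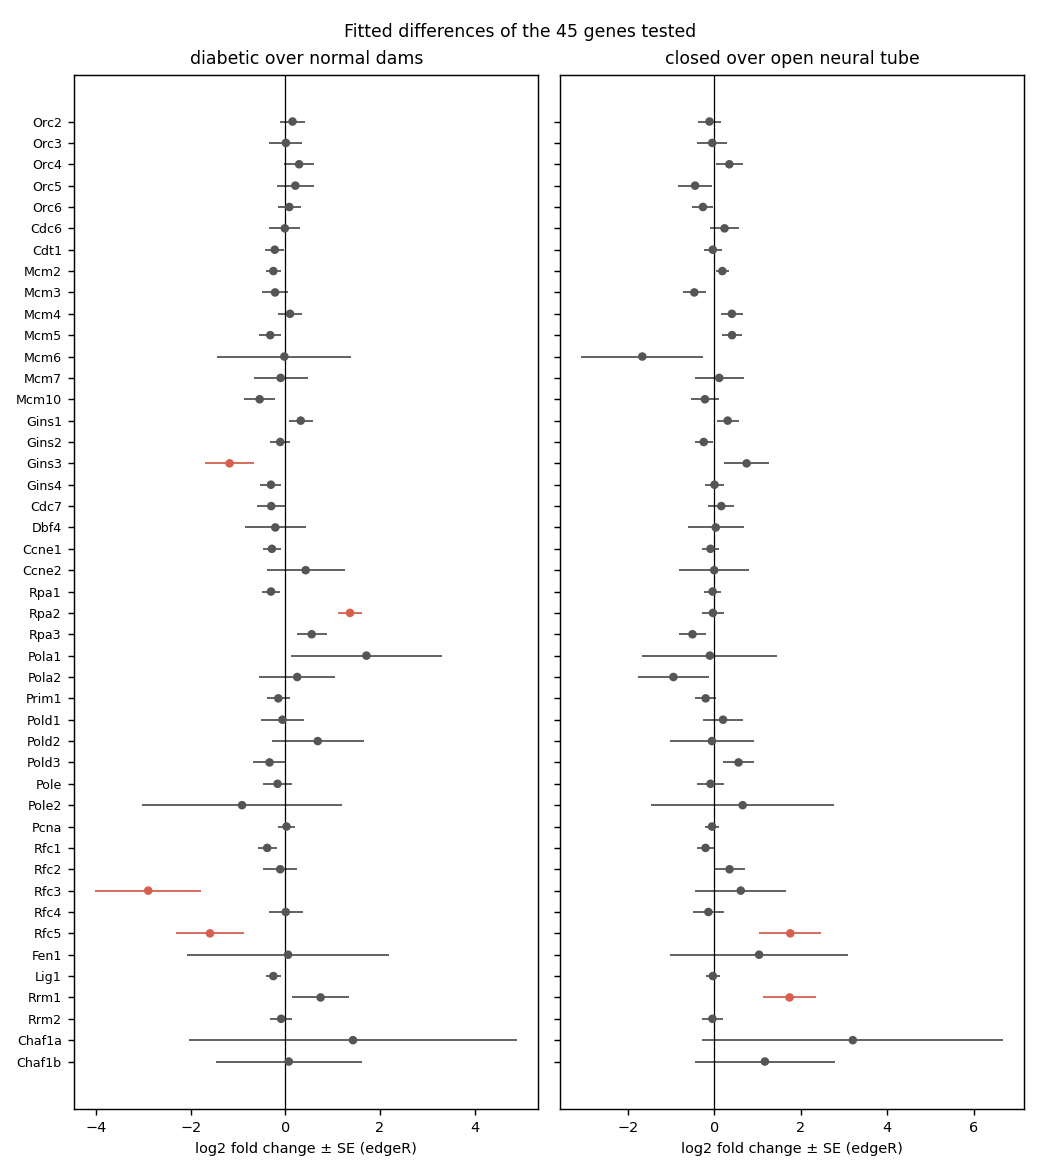
Log2 fold changes with SE of the 45 tested DNA replication genes for diabetic against normal dams and for closed against open tube, in red where the unadjusted p of edgeR's quasi-likelihood test was below 0.05. Most points lie within 0.5 of 0, and the red points are Rpa2, Rfc3, Gins3 and Rfc5 for dams and Rrm1 and Rfc5 for region.

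Closed tube was then compared with open tube, on either side of the closure site. Again none of the 45 genes passed, beside 0% of all genes tested, and the smallest adjusted p was 1.00 after rounding. At an unadjusted p below 0.05, 2 of 45 genes were higher in closed tube, beside 2.31% of all genes, and 0 were lower, beside 1.01%. No replication gene had closed and open libraries apart, where 1.68% of all genes were wholly higher and 1.07% wholly lower in closed tube. The median log2 fold change was -0.03 over the 45 genes and 0.07 over all genes, with 21 positive and 24 negative, where 55.5% of all genes were positive. The 2 genes were Rrm1, at 1.74 (SE 0.62), and Rfc5, at 1.76 (SE 0.72). For Rrm1, library 11 in closed tube (24.6 CPM) lay below library 13 in open tube (28.6 CPM).

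The 4 differences within a dam or a region rest on 2 libraries against 2, and no replication gene passed in any of them, beside 0% of all genes in each. In open tube, 1 gene was higher with diabetic dams at an unadjusted p below 0.05, beside 3.96% of all genes, and 5 were lower, beside 3.26%. The lower 5 were Gins3, at -2.13 (SE 0.64), Rfc5, at -2.55 (SE 0.98), Rfc1, at -0.68 (SE 0.28), Mcm5, at -0.68 (SE 0.30), and Rfc3, at -3.67 (SE 1.64). The smallest adjusted p was 0.598. Gins3 lay between -2.60 and -1.44 as each library was left out. Rfc3 stood at 42.2 CPM in Xist-bearing library 10 and at 3.65 CPM in library 09, against 1.14 and 2.39 CPM in libraries 13 and 14. Of the diabetic open libraries, 13 is the one with the low neural and high mesoderm sums, and Gins3 stood at 6.72 CPM in it and at 9.91 CPM in library 14, Mcm5 at 340.2 CPM in it and at 506 CPM in library 14. Library 14 lay between normal open libraries 09 and 10 in neural and mesoderm sums, but above them in blood and endothelial sums. The blood sums were 922 and 1009 CPM in libraries 13 and 14, against 63.3 and 1.06 CPM in 09 and 10. The endothelial sums were 292 and 127 CPM, against 53.5 and 59.6 CPM. The part of the tissue makeup in the Gins3 and Mcm5 values was not tested. In closed tube, Rpa2 was the 1 gene higher at that threshold, beside 0.908%, and 0 were lower, beside 0.263%. Rfc3 had -2.13 (SE 1.54) there, and 1.84 without library 12. Gins1 and Lig1 had 0.49 (SE 0.38) and -0.31 (SE 0.24) there. The median over the 45 genes was -0.17 in open tube, where all genes had 0.02, and 0.05 in closed tube, where all genes had 0.03. In open tube 15 of the 45 were positive, beside 51.1% of all genes, and in closed tube 24 were, beside 51.7%.

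With diabetic dams, Rfc5, Gins3 and Mcm5 were higher in closed than in open tube at an unadjusted p below 0.05, which is 3 of 45 beside 2.28% of all genes, and 0 were lower, beside 0.501%. Their log2 fold changes were 2.72 (SE 0.98), 1.70 (SE 0.63) and 0.77 (SE 0.30). Of the 45 genes, 27 were positive, beside 52.6% of all genes. Rpa3 and Mcm3 had -0.63 (SE 0.47) and -0.52 (SE 0.41). With normal dams, 0 genes were higher, beside 2.31%, and 0 lower, beside 1.09%. There Chaf1a had 56 counts over closed libraries 11 and 12, of which 43 were in library 11, and none in open libraries 09 and 10. Against a floor of 3 counts over the group, that is at least 25.2-fold higher in closed tube. The floor allows for counting error only and not for the spread between libraries. The fitted log2 fold change of Chaf1a was 8.33 (SE 3.77), with an unadjusted p of 0.055 by edgeR, and its predicted tag has 8 bases. Rrm1, Rfc1 and Pola2 had 1.85 (SE 0.92), -0.50 (SE 0.28) and -1.79 (SE 1.14). Of the 45 genes, 17 were positive, beside 53.6% of all genes. The comparisons within open tube and within diabetic dams share libraries 13 and 14.

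Whether the regional difference depended on the dam was tested as an interaction, the closed-minus-open difference with diabetic dams minus that with normal dams. None of the 45 genes passed, beside 0% of all genes, and at an unadjusted p below 0.05 there were 0 higher, beside 2.01%, and 0 lower, beside 1.72%. Of the 45 differences, 27 were positive, beside 50.7% of all genes. Gins3 had 1.90 (SE 0.87) and Mcm5 had 0.73 (SE 0.42). The firing factor Dbf4 had -1.77 (SE 1.21). The median SE of the 45 genes was 0.67 in this contrast, so a p that misses the threshold does not show that the regions differed alike with both dams. Over all 7 comparisons, the 1 replication gene that passed by any tool was Rpa2 between dams. DESeq2 called no replication gene in the remaining 6, where it called 0.0764% of all genes for region, 1.91% for dams in open tube, 0.017% for dams in closed tube, 0.472% for region with diabetic dams, 0.304% for region with normal dams and 0.207% for the interaction. Without the filter on low counts edgeR called none of them either, with 0.191%, 0.91%, 0.0725%, 0.27%, 0.145% and 0.152% of all genes in that order. By limma-voom no replication gene passed, beside 0.00849% of all genes for dams in open tube, for region with diabetic dams and for the interaction, and 0% elsewhere.

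Of 60 other genes of the pathway that are not among the 46, 59 were found (Mcmbp under its older symbol 1110007A13Rik) and 56 tested, and 0 passed in either comparison, beside 0% of all genes. For dams, 29 of the 56 log2 fold changes were positive, beside 52.7% of all genes, with a median of 0.03, beside 0.04 over all genes. At an unadjusted p below 0.05 by edgeR, 1 gene was higher with diabetic dams, beside 2.97% of all genes, and 0 were lower, beside 1.58%. The 1 gene was Ccnd1, the cyclin that drives entry into the cycle. It averaged 168 ± 43.9 CPM in diabetic libraries, against 114 ± 16.8 CPM in normal libraries (SD, n = 4 each). Its log2 fold change was 0.55 (SE 0.24). Orc1, the subunit of the origin recognition complex that is not on the list of 46, had -0.68, Cdc45, which travels with the helicase, -0.59, and Top2a, the topoisomerase of dividing cells, -0.07. Tyms, which makes thymidylate, had 1.04, and the cyclin-dependent kinase inhibitors Cdkn1a and Cdkn1c had 1.03 and 0.59.

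For closed against open tube, 31 of the 56 were positive, beside 55.5% of all genes, with a median of 0.09. E2f1 and Mcmbp were the 2 genes higher at an unadjusted p below 0.05, beside 2.31% of all genes, and 0 were lower, beside 1.01%. E2f1, a transcription factor of S-phase genes, stood at 88.1, 101, 82.1 and 129 CPM in closed libraries 15, 16, 11 and 12, against 65.7, 70.8, 60.3 and 36.5 CPM in open libraries 13, 14, 09 and 10, so that every closed library lay above every open one. Of all genes, 1.68% were wholly higher in closed tube. E2f1 averaged 100.0 ± 20.8 CPM in closed and 58.3 ± 15.2 CPM in open tube (SD, n = 4 each), and its log2 fold change was 0.83 (SE 0.28). Mcmbp, which binds MCM subunits, averaged 84.7 ± 8.63 CPM in closed and 55.2 ± 19.1 CPM in open tube. Orc1, Cdc45, Top2a and Tyms had log2 fold changes of -0.49, -0.97, -0.0041 and -0.50, and Cdkn1a and Cdkn1c had 1.54 and -0.94.

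For the E2F family of factors, the 250 bases before the start of each gene were searched on both strands for the E2F motifs TTTGGCGC and TTTCGCGC, which differ in 1 letter, in RefSeq promoters of GRCm38.p6. Of the 46 genes, 38 were matched in that table, and 4 of them (10.5%) held a motif, beside 205 of all 27025 genes (0.759%). The 7 matches are printed with the motif in capitals, 5′ to 3′ on the strand of the gene, and 4 read as given and 3 as the reverse complement. In the first Mcm6 stretch and in Mcm5, a match in each direction overlaps in GCGC, and the capitals cover both. The Pola1 match reads as the reverse complement.
Mcm6, chr1:128359788-128359831, minus strand: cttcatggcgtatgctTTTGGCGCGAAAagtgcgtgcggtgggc
Mcm6, chr1:128359729-128359768, minus strand: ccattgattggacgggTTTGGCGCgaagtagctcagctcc
Rfc3, chr5:151651209-151651234, minus strand: aagtgacgtcgcacgcTTTCGCGCtc
Mcm5, chr8:75109340-75109383, plus strand: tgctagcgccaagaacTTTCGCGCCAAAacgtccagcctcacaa
Pola1, chrX:93632270-93632309, minus strand: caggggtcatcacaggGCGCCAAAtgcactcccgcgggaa

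A match is a run of letters and not a site shown to be bound. In closed against open tube the 4 genes had log2 fold changes of -1.67 (SE 1.41) for Mcm6, 0.61 (SE 1.05) for Rfc3, 0.41 (SE 0.23) for Mcm5 and -0.10 (SE 1.56) for Pola1, none with an unadjusted p below 0.05 by edgeR. Between dams they had -0.02 (SE 1.42), -2.90 (SE 1.11), -0.32 (SE 0.23) and 1.71 (SE 1.60) in that order, and of these only Rfc3 was below that threshold. Rfc3 and Mcm5 were below it between dams in open tube, and Mcm5 between regions with diabetic dams. Without the Xist-bearing libraries 12 and 10, the log2 fold change of Rfc3 between dams was 0.10. Mcm6 and Pola1 rest on at most 7.93 and 10.9 CPM. Whether the motifs have a part in these values was not tested.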

How the data were processed

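The 8 SOLiD SAGE libraries were deposited by the authors as raw tag counts per gene symbol, 1 table per library. The submitters' processing notes name the mouse genome build mm9. No aligner, counter, annotation or strand setting, and no rule for tags that match several genes, is given in the sources used here, so genes with near-identical or overlapping copies are uncertain.

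Levels are CPM on library totals. Tests used R 4.3.3 with edgeR 4.0.16 on the deposited counts, with TMM scaling and filterByExpr by group (count of at least 10, total of at least 15), which kept 11779 genes. The quasi-likelihood F test was used with Benjamini-Hochberg adjustment over all of them and a threshold of 0.05, in an additive model of dam and region and in a model of the 4 groups. Log2 fold changes are on the TMM scale. DESeq2 1.42.0, limma-voom (limma 3.58.1), RLE scaling, library totals, no filter and leaving out each library were the alternatives. The fits were tested on simulated data. Tables and figures used Python 3.11.15 with pandas 2.3.3 and matplotlib 3.10.9.

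The genes and lists were chosen with earlier results of these data known. Full values are given for replication genes with an unadjusted p below 0.05 or groups that do not overlap in either additive comparison, for the highest gene of each role, and for the 2 of lowest p per direction in the other contrasts. Of other pathway genes, those with an unadjusted p below 0.05 and a fixed set are named, of which 1 is not reported here.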

Additional observations from a re-analysis of the deposited data

Results flagged for a closer look

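In 6 of 100 groups of 4 libraries, 1 library lay far from the other 3, where chance flags about 1 group in 20. Rfc3 stood at 42.2 CPM in library 10 where the other open libraries had 1.14 to 3.65 CPM, and at 37.9 CPM in library 12 where the other closed libraries had 1.25 to 6.15 CPM. Mcm3 stood at 95.3 CPM in diabetic open library 14 where the other diabetic libraries had 48.8 to 53.9 CPM, and at 102 CPM in normal open library 10 where the other normal libraries had 58.2 to 64.0 CPM. Pola2 stood at 32.6 CPM in library 10 where the other normal libraries had 2.85 to 7.55 CPM. Chaf1a stood at 2.88 CPM in library 13 and had no count in the other open libraries. Libraries 12 and 10 carried Xist. Rfc3 was high in both of them, while Pola2 was high in library 10 and stood at 7.55 CPM in library 12. The part of embryo sex in the values of Rfc3 and Pola2 was not tested.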

How the results depend on the processing

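No paired analysis was run because no replicate number occurs in more than 1 group. The labels do not say whether a closed and an open library came from the same embryos. The libraries with Xist, 12 and 10, are a closed and an open library of normal dams. Both were high in Rfc3 and Pold1 and had no count of Pola1. The tests between dams, and the SDs over 4 libraries, treat closed and open libraries as independent, which was not tested. Besides leaving out each library, 5 other settings were tried, and leaving out both libraries with Xist was added after the data had been seen. The count of replication genes called between dams was 0 in the main test and 1 (Rpa2) with DESeq2 and with edgeR without the filter. As each library was left out in turn, the median log2 fold change of the replication genes ranged from -0.22 to 0.011 for dams, -0.057 to 0.091 for region, -0.29 to -0.16 for dams in open and -0.18 to 0.19 for dams in closed tube, 0.043 to 0.16 for region with diabetic and -0.30 to 0.18 with normal dams, and 0.026 to 0.36 for the interaction. Without library 11 the median for region was 0.091, and without library 12 that for dams was 0.011. Without both libraries with Xist the medians were 0.19 for dams in closed tube, -0.28 for region with normal dams and 0.34 for the interaction, and limma-voom gave 0.31 for the interaction. The number of genes without overlap, 3 for dams and 0 for region, ranged from 4 to 7 and from 0 to 4 of 45 as each library was left out, beside 5.44% to 7.83% and 4.71% to 7.5% of all genes. Without both libraries with Xist it was 12 for dams, beside 16.5% of all genes, and 7 for region, beside 8.7%, and fewer libraries then have to separate. On TMM-scaled totals the summed level averaged 8949 CPM in closed and 8802 CPM in open tube, against 8813 and 8928 CPM on library totals. Which region was higher thus depended on the scaling. Rfc3 between dams reversed to 0.10 without both libraries with Xist, and in closed tube, where leaving out single libraries gave -3.08 to 1.84, to 1.84 without library 12 and to 1.84 without both. The cause was not tested in any of these cases. With 2 libraries in a group, differences of low genes such as Chaf1a, Pole2 and Prim2 are not resolved.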
